A study of Mus musculus with 6 samples.

Results

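The collagen genes were all rows of the deposited symbol table named Col, a type number, the letter a and a chain number. There were 43 of them among 34352 genes, and each had an identifier that matched the mouse annotation. They were described in the livers of C57BL/6 mice of wild-type genotype, each in 1 of 2 groups at day 90. Control mice were given 0 mg per kg per day, and the other mice received cadmium chloride (CdCl2) at 20 mg per kg per day by gavage, that is, into the stomach. Each group had 3 libraries of the fraction called input in the labels.

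Per the labels' protocols, males 6 to 8 weeks old were housed, 6 mice were assigned to each group, and RNA fragments were exposed to an antibody for m6A, that is, adenosine methylated at its N6 position. The labels describe the input as the fragments left unbound. How much of a transcript was present and how much of it was bound therefore cannot be told apart in these libraries. The labels do not tie mice to libraries, so every p-value rests on the variation among libraries alone.

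The libraries held 42115960 to 68587128 recovered reads. Alb, the hepatocyte gene for serum albumin, stood at 10129.7 to 17899.2 FPKM (fragments counted on a gene, divided by its length and the library's total). It took 2.87% of reads in control 1 and 2.91% in cadmium 2, against 4.89% to 5.06% in the other libraries. The top 10 genes by reads made up 44.6% of control 1 and 33.3% to 35.9% of the others. Xist, transcribed from the inactive X chromosome of female cells, lay between 19.7 and 35.5 FPKM in all 6 libraries, and the Y-linked Kdm5d and Uty did not exceed 6.76e-05 FPKM. Those values go against the sex on the labels in both groups alike.

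Collagens are secreted proteins made of 3 chains wound into a triple helix, and each gene encodes 1 kind of chain. Fibrillar types form the banded cables of connective tissue, type IV forms the sheet of basement membranes, and fibril-associated, beaded-filament and multiplexin types link or coat these structures. In liver the fibrillar chains come mainly from stellate cells and portal fibroblasts, and their build-up in response to chronic injury is known as fibrosis.

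Several collagen transcripts were higher in cadmium livers, with the largest log2 fold changes in Col1a1 and Col3a1, which encode chains of the main fibrils. 22 of the 43 genes had a mean of at least 0.1 FPKM over the 6 libraries and were tested, with limma on log2(FPKM + 1) and p-values adjusted over all 19012 genes tested. 10 rose at an adjusted p of 0.05 and 0 fell. Of all genes tested, 3.04% were called higher and 0.694% lower, that is 578 and 132 genes. By the mean over the 6 libraries, 10 of the 11 collagens at or above 1 FPKM rose, and 0 of the 11 below it. The share called higher among all genes at or above 1 FPKM was 4.27%. However, 4 of the 10, Col1a1, Col5a1, Col1a2 and Col6a3, reached 1 FPKM in no control library. Their cadmium values carried them over that cut, so the split is partly made by the rise itself. The median log2 fold change of the tested collagen genes was 0.32, beside 0.08 for all genes tested.

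The count of calls changed with the block and with the libraries used. The labels give the replicate number as the batch, and each batch holds 1 library of each group. With that number as a block, limma called 0 of the 22 collagen genes, 14 of which had an unadjusted p under 0.05 in that fit, and 2 of all genes higher, or 0.0105%. Leaving out 1 library also cut the count from 10, to 5 without control 1, 1 without control 2, 2 without control 3, 1 without cadmium 1, 5 without cadmium 2 and 0 without cadmium 3 (13 of 22 at an unadjusted p under 0.05). The shares of all genes called higher in those fits were 0.831%, 0.252%, 0.137%, 0.137%, 0.7% and 0%. Shares of all genes at an unadjusted p under 0.05 were not counted with the block or without cadmium 3. The 14 and 13 collagen genes therefore have no background to be judged against. Every log2 fold change of the 10 genes stayed above 0 in each of these fits, but this was fixed in advance. The block leaves the fold change as it was, and groups that do not overlap keep their order without 1 library.

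Other ways of handling the values gave 6 to 10 collagen calls, save 1. The same 10 genes were called with a pseudocount of 0.1 FPKM, and with filters of 1 FPKM in 3 libraries or on the mean. In those fits 3%, 7.86% and 6.98% of all genes were called higher. Of the 10, Col1a1, Col5a1, Col1a2 and Col6a3 passed the 1 FPKM filters only through their cadmium values. Col6a1 reached 1 FPKM in 1 control and 3 cadmium libraries, so it passed the filter on 3 libraries only through cadmium. Quantile normalization left 6 (0.847% of all genes), upper quartile scaling 7 (1.23%), a fit of the deposited log2 values 9 (2.45%) and voom on the recovered reads 8 (2.39%). With no filter 0 of 43 were called, 19 had an unadjusted p under 0.05, and 0.0902% of all genes were called higher. The share of all genes at that unadjusted p was not counted in this fit either. Scaling also set the balance of all calls, 578 higher and 132 lower in FPKM against 161 and 157 after quantile normalization.

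On the log2(FPKM + 1) scale a low gene's change comes out too small, so ratios of mean FPKM are given beside the fold changes. The 10 genes had 208 to 87330 reads in a library. Their ratios of cadmium to control ran from 1.53 to 4.55.

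**Figure D1:**
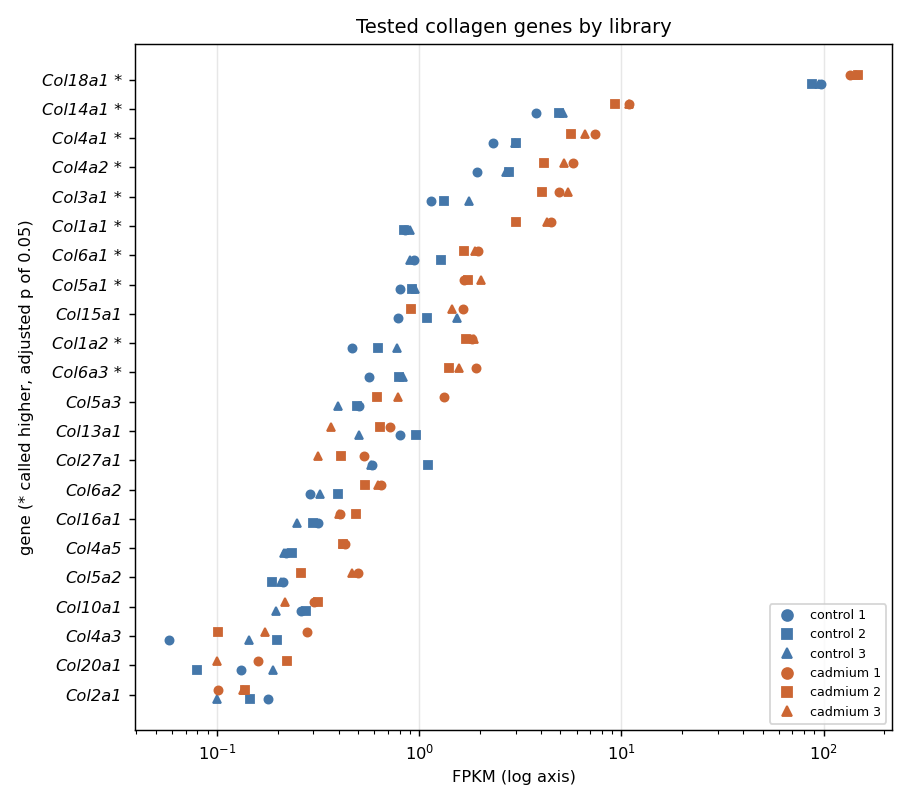
FPKM on a log axis of the 22 tested collagen genes in each of the 6 libraries, controls in blue and cadmium in orange, with the marker giving the replicate number and an asterisk the 10 genes called higher. In all genes with an asterisk the 3 cadmium points lie to the right of the 3 control points, while those of Col15a1 are mixed.

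Groups that did not overlap were more frequent than calls. In 15 of the 22 tested genes every cadmium library lay above every control library, and in 1, Col27a1, every one lay below. Among all genes tested, 25% did not overlap in the upward direction and 5.19% in the downward one. An unadjusted p under 0.05 was reached by 15 collagen genes with higher and 0 with lower values, against 19% and 4.02% of all genes.

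Base sequence just before the gene start was set beside the response for genes that rose together, and 3 are shown because they differ in composition. They are the 250 bases before the RefSeq start on GRCm38.p6, 5′ to 3′ on the gene's strand, and capitals mark every match to the motifs named below. Col3a1 lies at chr1:45311288-45311537 on the plus strand, Col5a1 at chr2:27886175-27886424 on the plus strand, and Col6a3 at chr1:90843972-90844221 on the minus strand.
Col3a1: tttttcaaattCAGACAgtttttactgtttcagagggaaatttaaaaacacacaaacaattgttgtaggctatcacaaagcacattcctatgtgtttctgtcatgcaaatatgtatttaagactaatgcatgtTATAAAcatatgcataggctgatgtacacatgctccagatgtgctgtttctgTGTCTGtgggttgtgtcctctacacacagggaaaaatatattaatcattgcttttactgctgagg
Col5a1: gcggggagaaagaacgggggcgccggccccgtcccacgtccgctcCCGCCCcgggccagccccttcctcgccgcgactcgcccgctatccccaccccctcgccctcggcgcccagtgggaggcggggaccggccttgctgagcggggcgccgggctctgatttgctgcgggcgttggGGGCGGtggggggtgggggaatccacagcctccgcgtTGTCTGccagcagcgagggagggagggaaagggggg
Col6a3: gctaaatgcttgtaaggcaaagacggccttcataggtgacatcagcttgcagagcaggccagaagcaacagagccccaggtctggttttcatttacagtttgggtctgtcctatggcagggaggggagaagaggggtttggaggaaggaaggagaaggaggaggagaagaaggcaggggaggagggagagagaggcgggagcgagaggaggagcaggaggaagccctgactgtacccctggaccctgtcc

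G and C make up 35.2% of the Col3a1 window, 76.4% of that of Col5a1 and 57.2% of that of Col6a3, where the median of all windows is 52.4%. The letters searched, on both strands, were those of known promoter elements. These were CCAAT, the site of the factor NF-Y. A further element was TATAAA, bound by the basal transcription machinery. The GC box of the Sp1 family was searched as GGGCGG. For AP-1, a factor of growth and stress responses, the letters were TGANTCA. The letters for Smad proteins, which carry TGF-beta signals, were CAGACA. No element overlapped another in the windows shown. The basal element begins 117 bases before the start of Col3a1, whose Smad letters lie at -239 and, as the reverse complement, at -65. Col5a1 holds the GC box at -73, its reverse complement at -205 and that of the Smad letters at -36, and Col6a3 holds none of them.

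A window was matched for 34 collagen genes. Among them 12 held the NF-Y letters, 5 the basal element, 21 the GC box, 1 the AP-1 letters and 9 the Smad letters, where the shares of all 32817 windows were 33.8%, 12.4%, 32.7%, 6.75% and 17.1%. For the 8 called genes with a window, all but Col1a1 and Col14a1, the counts were 4, 1, 4, 1 and 4. A match describes letters in a window, and no binding was measured.

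Among tested collagen genes, the fibrillar Col1a1 and Col3a1 had the largest fold changes. 4 of the 8 tested of 11 members rose, and the summed FPKM of the 11 went from 5.44 ± 0.532 in controls to 14.3 ± 1.98 in cadmium (SD, n = 3). Col1a1 encodes the major chain of type I collagen, the most abundant protein of scar tissue (chromosome 11, 94936224 to 94953042, GENCODE M21 on GRCm38). It stood at 0.852, 0.838 and 0.897 FPKM in controls 1 to 3 and at 4.48, 3.02 and 4.29 in cadmium 1 to 3. The controls lay close together, and the lowest cadmium library, cadmium 2, was still well above them. Its mean rose from 0.863 ± 0.0307 to 3.93 ± 0.792, a ratio of 4.55, with a log2 fold change of 1.39 (SE 0.12) and an adjusted p of 0.0125, or 0.0685 with the block.

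Col1a2, the partner chain in type I collagen (chromosome 6, 4504814 to 4541544), had 0.467, 0.628 and 0.775 FPKM in controls and 1.83, 1.70 and 1.88 in cadmium. The cadmium libraries were nearly level and all over every control. It rose from 0.623 ± 0.154 to 1.80 ± 0.0907, a ratio of 2.89, with a log2 fold change of 0.79 (SE 0.09) and an adjusted p of 0.0213, or 0.0833 with the block.

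Col3a1 encodes the single chain of type III collagen, which forms thin fibrils together with type I (chromosome 1, 45311538 to 45349706). Controls had 1.148, 1.33 and 1.76 FPKM and cadmium libraries 4.94, 4.05 and 5.42. The groups did not overlap, and cadmium 2 was again the lowest of its group. The mean rose from 1.41 ± 0.313 to 4.80 ± 0.693, a ratio of 3.40, with a log2 fold change of 1.27 (SE 0.13) and an adjusted p of 0.0178, or 0.0685 with the block. An exon of the predicted gene Gm47302 overlaps Col3a1, and reads there could belong to either.

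Type V collagen starts and limits the width of type I fibrils. Col5a1 (chromosome 2, 27886425 to 28039514) had 0.807, 0.920 and 0.953 FPKM in controls and 1.67, 1.75 and 2.02 in cadmium. Cadmium 3 was highest, and the groups were apart. It rose from 0.893 ± 0.0762 to 1.81 ± 0.181, a ratio of 2.03, with a log2 fold change of 0.57 (SE 0.08) and an adjusted p of 0.0250, or 0.0927 with the block. Exons of 2810430I11Rik and Gm13372 overlap it.

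The other chains of type V did not pass the test. Col5a2 had 0.213, 0.187 and 0.207 FPKM in controls and 0.497, 0.260 and 0.464 in cadmium, with an adjusted p of 0.161. Col5a3 had 0.504, 0.494 and 0.395 against 1.33, 0.622 and 0.789, with an adjusted p of 0.169. In both, cadmium 2 was the lowest and cadmium 1 the highest of the cadmium libraries, and the groups did not overlap.

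Col27a1, a fibrillar chain of developing cartilage, was the 1 tested collagen gene whose cadmium libraries all lay below the controls. Its FPKM were 0.584, 1.103 and 0.578 in controls and 0.533, 0.410 and 0.315 in cadmium. Control 2 stood far above the other controls, and the gap between the groups was small. The log2 fold change was -0.30 (SE 0.13), with an adjusted p of 0.233, and -0.16 without control 2. Col2a1, the cartilage fibril chain, had 0.142 ± 0.0396 and 0.125 ± 0.0201 FPKM with overlapping groups and an adjusted p of 0.835.

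**Figure D2:**
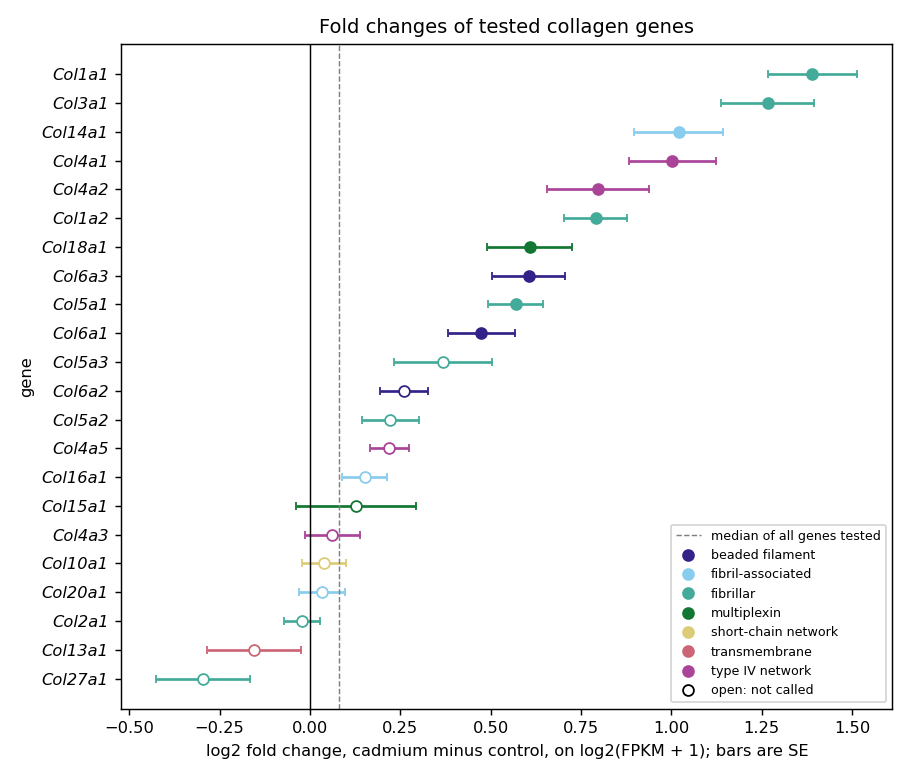
Log2 fold change, cadmium minus control, of the 22 tested collagen genes with SE, coloured by structural class, filled where called; the dashed line is the median of all genes tested, 0.08. The 10 filled points run from 0.47 for Col6a1 to 1.39 for Col1a1, and Col2a1, Col13a1 and Col27a1 lie below 0.

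Type IV collagen forms the network of basement membranes, and in liver it also lines the sinusoids. 2 of the 4 tested of 6 members rose, and the summed FPKM of the 6 went from 5.68 ± 0.926 to 12.3 ± 1.83. Col4a1 and Col4a2 encode the chains found in nearly all basement membranes. They lie head to head on chromosome 8, Col4a1 on the minus strand from 11198423 to 11312826 and Col4a2 on the plus strand from 11312805 to 11449287. The gene models share 22 bases, and whether the counting used strand is not given in the sources used here.

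Col4a1 had 2.32, 3.00 and 2.96 FPKM in controls and 7.37, 5.65 and 6.61 in cadmium. Control 1 and cadmium 2 were the lowest of their groups, which were far apart. It rose from 2.76 ± 0.383 to 6.55 ± 0.862, a ratio of 2.37, with a log2 fold change of 1.00 (SE 0.12) and an adjusted p of 0.0215, or 0.0938 with the block. For Col4a2 the values were 1.94, 2.78 and 2.68 against 5.77, 4.13 and 5.20, with the same 2 libraries lowest. It rose from 2.47 ± 0.459 to 5.03 ± 0.833, a ratio of 2.04, with a log2 fold change of 0.80 (SE 0.14) and an adjusted p of 0.0395, or 0.118 with the block.

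The other type IV chains were at low levels. Col4a5, on the X chromosome and mutated in Alport syndrome, had 0.219, 0.235 and 0.215 FPKM in controls and 0.431, 0.420 and 0.422 in cadmium. Its libraries were close together within each group and the groups did not overlap, yet the adjusted p was 0.0726. It passed at 0.0482 in the fit of the deposited log2 values. Col4a3 had 0.134 ± 0.0710 and 0.184 ± 0.0886 FPKM with overlapping groups and an adjusted p of 0.672. Its neighbour Col4a4, which starts 72 bases away on the opposite strand, was not tested at a mean of 0.0888 FPKM, nor was Col4a6, the neighbour of Col4a5.

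Type VI collagen makes beaded filaments around cells. 2 of the 3 tested of 6 members rose, with a summed FPKM of 2.14 ± 0.350 in controls and 4.13 ± 0.467 in cadmium. Col6a1 (chromosome 10, 76708792 to 76726168) had 0.941, 1.28 and 0.903 FPKM in controls and 1.95, 1.66 and 1.88 in cadmium. Control 2 was the highest control and still below all cadmium libraries. It rose from 1.04 ± 0.210 to 1.83 ± 0.149, a ratio of 1.76, with a log2 fold change of 0.47 (SE 0.09) and an adjusted p of 0.0476, or 0.137 with the block.

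Col6a3, the longest of the classic type VI chains, lies on chromosome 1 from 90765923 to 90843971. Controls had 0.562, 0.798 and 0.829 FPKM and cadmium libraries 1.91, 1.41 and 1.58. Control 1 and cadmium 2 were the lowest of their groups, which did not overlap. Its mean rose from 0.730 ± 0.146 to 1.63 ± 0.251, a ratio of 2.24, with a log2 fold change of 0.61 (SE 0.10) and an adjusted p of 0.0353, or 0.115 with the block. Col6a2, the third chain, had 0.289, 0.399 and 0.325 FPKM against 0.644, 0.538 and 0.626, a ratio of 1.79 near that of Col6a1. Its groups did not overlap either, and its adjusted p was 0.0818.

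Among the fibril-associated collagens, which sit on the surface of fibrils, 1 of the 3 tested of 8 members rose. That was Col14a1, encoding type XIV collagen (chromosome 15, 55307750 to 55520803). Its FPKM were 3.80, 4.94 and 5.14 in controls and 10.9, 9.27 and 10.9 in cadmium. Control 1 was lowest, and the lowest cadmium library was well above the highest control. It rose from 4.63 ± 0.724 to 10.4 ± 0.954, a ratio of 2.24, with a log2 fold change of 1.02 (SE 0.12) and an adjusted p of 0.0215, or 0.0917 with the block. It was second in level among the collagen genes in both groups. Col16a1 had 0.318, 0.300 and 0.249 FPKM against 0.404, 0.488 and 0.401, without overlap and with an adjusted p of 0.204. Col20a1 overlapped, at 0.133 ± 0.0543 and 0.161 ± 0.0615 FPKM, with an adjusted p of 0.784.

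Col18a1 was the most abundant collagen transcript in every library. It encodes a basement membrane collagen whose end fragment is endostatin, and hepatocytes are a known source of it (chromosome 10, 77052178 to 77166548). Controls had 97.2, 87.9 and 94.8 FPKM and cadmium libraries 136, 148 and 145. Here cadmium 1 was the lowest of its group and cadmium 2 the highest, and the groups were far apart. It rose from 93.3 ± 4.82 to 143 ± 6.35, the smallest ratio of the called genes at 1.53, with a log2 fold change of 0.61 (SE 0.12) and an adjusted p of 0.0459, or 0.126 with the block. This call was lost in each of the fits that left out 1 library, and in the fits with quantile normalization (0.0977), upper quartile scaling (0.0919), the deposited log2 values (0.104) and voom (0.0913). Col15a1, the other multiplexin, was the only tested collagen gene with a mean of at least 1 FPKM that was not called. Its values were 0.790, 1.09 and 1.55 in controls and 1.65, 0.914 and 1.45 in cadmium, fully mixed, with a log2 fold change of 0.13 (SE 0.17) and an adjusted p of 0.690.

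Of the short-chain collagens 1 of 3 was tested, and of the membrane-bound ones 1 of 4, and neither was called. Col10a1, a network chain of growth-plate cartilage, had 0.260, 0.276 and 0.196 FPKM in controls and 0.303, 0.315 and 0.217 in cadmium. Its groups overlapped, with a log2 fold change of 0.04 (SE 0.06) and an adjusted p of 0.747. Col13a1, a transmembrane collagen, had 0.801, 0.966 and 0.503 FPKM against 0.718, 0.642 and 0.367. Those groups overlapped as well, with a log2 fold change of -0.15 (SE 0.13) and an adjusted p of 0.520.

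The 21 collagen genes below the level for testing had means of 7.65e-05 to 0.0888 FPKM. In 6 of them, Col12a1, Col8a1, Col17a1, Col9a3, Col6a5 and Col4a6, every cadmium library lay above every control library, and in 0 every one lay below. Of all 15339 genes below that level with any signal, 6.95% and 1.48% did not overlap in these directions. Col8a1, a short-chain collagen of vessel walls, had 22, 15 and 14 reads in controls and 46, 39 and 55 in cadmium, or 0.0340 ± 0.00383 and 0.0842 ± 0.0256 FPKM. Col6a5 had 0, 0 and 4 reads in controls and 28, 7 and 30 in cadmium, so a few reads decide its difference. Col25a1 was apart in 1 library, with 100 reads in cadmium 1 and 5 to 17 in the others. Col7a1, the chain of anchoring fibrils, had 5 to 11 reads in every library. Col28a1 had 0 reads in each control and 5, 0 and 2 in cadmium. Col19a1 had 1 read in all, in control 3. The other untested members overlapped between groups: Col4a4, Col23a1, Col24a1, Col8a2, Col11a2 and Col6a6 with 0 to 86 reads in a library, and Col6a4, Col9a2, Col22a1, Col26a1 and Col11a1 with 0 to 7.

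In sum over all 43 genes, collagen FPKM were 115, 110 and 117 in controls and 185, 186 and 190 in cadmium. The groups were far apart against a spread of 114 ± 3.27 and 187 ± 3.03, a ratio of 1.64. The exact permutation test, two-sided, gave p = 0.1, the smallest value that 3 against 3 libraries allow. Without Col18a1 the sum was 20.7 ± 2.704 and 44.3 ± 5.52 FPKM, a ratio of 2.14, also at p = 0.1 by the exact test. By recovered reads, collagens took 0.0974%, 0.0959% and 0.103% of control libraries and 0.164%, 0.163% and 0.165% of cadmium libraries.

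The makeup of the collagen pool was compared by shares, 2 of which did not overlap between the groups. Col18a1 held 84.7%, 79.6% and 81.2% of the summed FPKM in controls and 73.5%, 79.5% and 75.9% in cadmium, lower in all cadmium libraries, though cadmium 2 lay just under control 2. Of the sum without Col18a1, the type I and III chains together held 14.0%, 12.5% and 15.6% in controls and 23.0%, 23.0% and 25.3% in cadmium. Both differences had p = 0.1 in the exact permutation test. The share of Col14a1, 22.3% and 23.5%, and that of Col4a1 with Col4a2, 25.2% and 26.1%, overlapped between groups, at p = 0.2 and p = 0.3 in the exact permutation test.

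Ratios between chains show whether members changed unequally within a library, and 10 were computed. In 4 the groups did not overlap, each with p = 0.1 in the exact permutation test and an adjusted value of 0.25. Col1a1 to Col4a1 went from 0.317 ± 0.0457 to 0.597 ± 0.0575. Col3a1 to Col5a1 went from 1.57 ± 0.237 to 2.65 ± 0.325. Col1a1 to Col3a1 went from 0.627 ± 0.116 to 0.815 ± 0.0836, with the lowest cadmium library barely above the highest control.

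Partner chains of 1 molecule were compared in the same way. Col4a1 to Col4a2 was 1.13 ± 0.0606 and 1.31 ± 0.0545 and did not overlap. Col1a1 to Col1a2 was 1.44 ± 0.346 and 2.17 ± 0.352, with overlap between control 1 and cadmium 2 and p = 0.2 in the exact permutation test. Col6a1 to Col6a2 was 3.09 ± 0.264 and 3.04 ± 0.0454 (p = 0.9, exact permutation test), and these 2 genes lie on the same strand of chromosome 10 with 85161 bases between them. Their ratio differed by less than the spread between control libraries. For Col6a1 to Col6a3, Col5a1 to Col5a2, Col4a1 to Col4a5 and Col15a1 to Col18a1 the groups overlapped, with p from 0.2 to 0.9 in the exact permutation test.

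**Figure D3:**
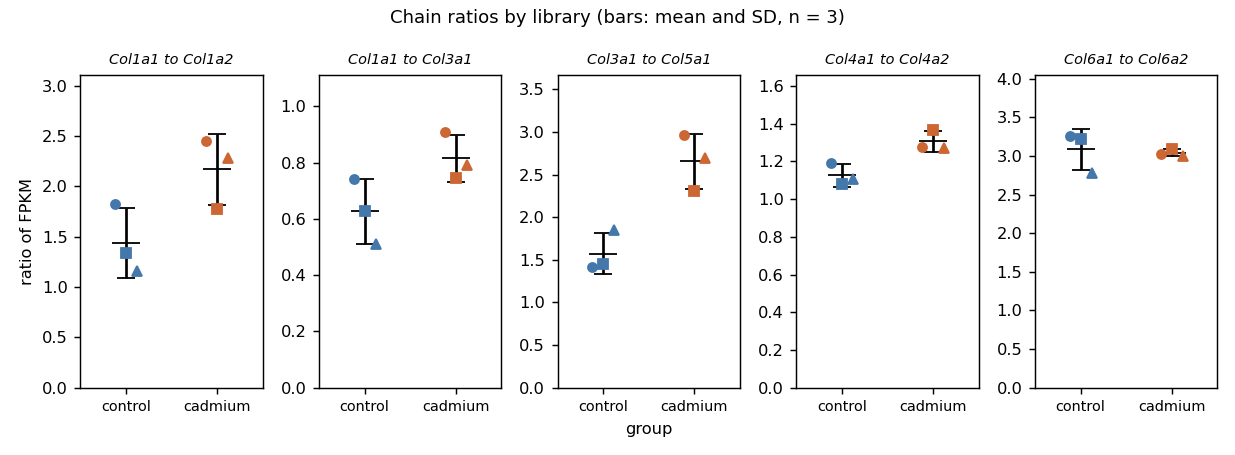
Ratio of FPKM between chain pairs in each library, controls in blue and cadmium in orange, with circles, squares and triangles for replicates 1 to 3 and bars for mean and SD (n = 3). The groups are apart for Col1a1 to Col3a1, Col3a1 to Col5a1 and Col4a1 to Col4a2, overlap slightly for Col1a1 to Col1a2, and coincide near 3.09 and 3.04 for Col6a1 to Col6a2.

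The authors' deposited table gave an FDR under 0.05 and a higher value in cadmium for 15 of the 43 collagen genes and a lower one for 1. In the authors' deposited table those directions held 3.72% and 3.15% of all genes. All 10 genes called here were among the 15, and 14 of the 15 were tested here. The lower gene was Col27a1, at an FDR of 7.92e-04 in the authors' deposited table, and the gene not tested here was Col6a5, at 0.0153. The test behind those values is not given in the sources used here.

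Among genes that process and cross-link collagen, 25 were tested of a list of 33. Of these, 2 rose and 0 fell, and the median log2 fold change was 0.21. Of all genes tested, 3.04% rose and 0.694% fell, with a median of 0.08. Adamts2, which cuts the front end off procollagen, had 0.341, 0.336 and 0.445 FPKM in controls and 0.729, 0.812 and 0.812 in cadmium (adjusted p = 0.0392, or 0.115 with the block). Pcolce, which speeds removal of the tail end, had 0.659, 0.936 and 0.848 against 2.24, 1.39 and 1.94 (adjusted p = 0.0464, or 0.131 with the block). In both the groups were apart. Of these 2, Pcolce alone kept its call with 1 library left out, and only without cadmium 2 (0.0487). Loxl2, a cross-linking oxidase, and Bmp1, the tail-end protease, had adjusted p of 0.0581 and 0.0592, at ratios of 2.11 and 1.39. The mean level of Lox, the founding cross-linking enzyme, was under 0.1 FPKM.

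Degradation and receptor genes gave no calls. Of 15 tested in the list of collagen degradation 0 rose and 0 fell (limma), with 7 higher and 1 lower at an unadjusted p under 0.05. Of all genes tested, 19% were higher and 4.02% lower at that p. Mmp2, a gelatinase, was nearest the threshold with 0.321 ± 0.0611 and 0.642 ± 0.0661 FPKM and an adjusted p of 0.0597. Ctsl, a lysosomal protease, had 33.4 ± 5.24 and 47.7 ± 2.05 FPKM (adjusted p = 0.0944). Mmp15, a membrane-bound protease, had lower values in all cadmium libraries, 7.86 ± 0.958 and 5.66 ± 0.718 FPKM, at 0.106. Of 9 receptors tested, 0 were called, with 3 higher and 0 lower at an unadjusted p under 0.05, beside 19% and 4.02% of all genes. Ddr1 and Ddr2, kinases that bind collagen, had ratios of 2.11 and 1.44 and adjusted p of 0.149 and 0.218.

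Signals that act on collagen genes were represented by 28 tested members of the TGF-beta and PDGF pathways. 1 rose and 0 fell, a share near the 3.04% of all genes called higher. The median log2 fold change was 0.16, beside 0.08 for all genes tested. At an unadjusted p under 0.05, 15 of the 28 were higher, where 19% of all genes were. The riser was Thbs1, whose protein releases latent TGF-beta, with 0.156, 0.107 and 0.236 FPKM in controls and 0.483, 0.582 and 0.780 in cadmium, apart in every library (adjusted p = 0.0433, or 0.0972 with the block). It was called in none of the fits that left out 1 library (0.0752 to 0.139). Pdgfrb, the PDGF receptor of stellate cells, had 1.35 ± 0.450 and 2.89 ± 0.472 FPKM and an adjusted p of 0.0606. For Tgfb1, the ligand, the values were 1.098 ± 0.273 and 1.89 ± 0.136, at 0.0618.

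Matrix proteins that share fibrils or basement membranes with collagen rose in a few cases. Of 30 proteoglycan and matricellular genes tested, 3 rose and 0 fell, with a median of 0.25. Among all genes tested, 3.04% rose and 0.694% fell, with a median of 0.08. Sparc, which binds collagen on its way out of the cell, had 5.56, 6.14 and 5.81 FPKM in controls and 12.2, 10.3 and 12.9 in cadmium, a ratio of 2.02 (adjusted p = 0.0214, or 0.0917 with the block). Cadmium 2 was the lowest of its group, as in Col1a1, Col1a2 and Col3a1, and the groups were apart. Lum, a proteoglycan of fibril surfaces, and Fbn1, the microfibril protein, rose at ratios of 2.22 and 2.40 (adjusted p = 0.0404 and 0.0297, or 0.122 and 0.104 with the block). Beside the same values for all genes, 2 rose and 0 fell of 21 other basement membrane genes tested, with a median of 0.28. They were Lamb1, a laminin chain, at a ratio of 2.05 (adjusted p = 0.0267, or 0.104 with the block), and Agrn, a heparan sulfate proteoglycan, at 1.42 (adjusted p = 0.0485, or 0.131 with the block). With 1 library left out, Sparc kept its call without control 1 and without cadmium 2, and Lum, Fbn1, Lamb1 and Agrn in none of the 6 fits.

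Some markers of stellate cells, a main source of liver collagen, rose. Of 18 markers of stellate cells and myofibroblasts tested, 6 rose and 0 fell, with a median log2 fold change of 0.49. Of all genes tested, 3.04% rose and 0.694% fell, with a median of 0.08. The summed FPKM of the markers was 58.2 to 85.2 in controls and 98.4 to 102 in cadmium. Ngfr, a receptor on stellate cells, had 0.676, 0.651 and 0.685 FPKM in controls and 2.18, 1.77 and 1.99 in cadmium, apart in every library, at a ratio of 2.95 (adjusted p = 0.0125, or 0.0820 with the block). Vim, an intermediate filament of mesenchymal cells, went from 1.52 ± 0.201 to 3.72 ± 0.328 FPKM (adjusted p = 0.0178, or 0.0887 with the block). Sod3 and Colec11 rose at ratios of 1.84 and 1.62 (adjusted p = 0.0218 and 0.0325), and Lrat, the enzyme that stores vitamin A, and Reln at 1.61 and 1.51 (adjusted p = 0.0418 and 0.0475). With the block these 4 were at 0.0938, 0.0938, 0.115 and 0.0957. Colec11, Lrat and Reln were called in none of the fits that left out 1 library, Sod3 in 1, Vim in 3 and Ngfr in 4. The share of these markers in the collagen result was not tested. In whole liver, more cells of a type and more RNA per cell cannot be told apart.

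Other cell types that can hold collagen RNA were read from marker lists in the same way. Of 14 portal fibroblast and mesothelial markers 6 could be tested and 0 were called. At an unadjusted p under 0.05, 4 were higher and 0 lower, where 19% and 4.02% of all genes were. Cd34 is among the 4. With means of 0.0766 FPKM in controls and 0.171 in cadmium, it passed the filter of 0.1 FPKM only through cadmium. The list summed to 1.79 to 2.54 FPKM in controls and 3.39 to 4.54 in cadmium. Msln, Wt1, Upk3b, Upk1b, Muc16, Lrrn4, Gli1 and Pi16 averaged under 0.1 FPKM. Vessel and smooth muscle markers gave 0 calls of 6 tested, with 2 higher at an unadjusted p under 0.05, beside 19% of all genes. The same Cd34 is on this list and among these 2. The list summed to 11.5 to 16.5 and 20.6 to 21.1, and Cnn1, Actg2 and Lmod1 were under 0.1 FPKM. Sinusoidal endothelial markers gave 0 calls of 18 tested, with 9 higher at an unadjusted p under 0.05, beside the same 19%. Their sums overlapped, at 61.0 to 92.2 and 85.0 to 107. No list member that the symbol table holds was at 0 in all libraries. The part of these cell types in the collagen result was not tested.

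Macrophage markers had calls in both directions, and duct markers 1 call, where 3.04% of all genes tested rose and 0.694% fell. Of 14 Kupffer cell and macrophage markers tested, 4 rose, Lyz2, Cd68, C1qc and Adgre1, and 1 fell, Timd4, a marker of resident Kupffer cells. Their ratios were 2.27, 3.24, 1.80 and 2.34, and 0.161 for Timd4, with adjusted p from 0.0325 to 0.0477. Timd4, with means of 0.568 FPKM in controls and 0.0913 in cadmium, passed the filter of 0.1 FPKM only through its controls. The list summed to 51.6 to 88.6 FPKM in controls and 109 to 125 in cadmium. Of 11 cholangiocyte markers tested 1 rose, Krt18, a keratin that hepatocytes also make (ratio 1.77, adjusted p = 0.0404), with sums of 111 to 157 and 174 to 226 FPKM and Krt7, Cftr, Sctr and Cldn4 under 0.1. With the block 0 members of either list were called. Timd4 and Krt18 were called in none of the fits that left out 1 library, and the 4 macrophage risers only without control 2. Hepatocyte genes gave 0 calls of 14 tested, with 1 higher and 1 lower at an unadjusted p under 0.05 (19% and 4.02% of all genes). Their median of 0.08 was equal to that of all genes, and their sums overlapped, at 20583.6 to 29423.5 and 22138.6 to 31249.9. Genes of muscle, fat and pancreas gave 0 calls of 2 tested, with 0 at an unadjusted p under 0.05, and overlapping sums of 264 to 376 and 268 to 370. Nearly all of these sums was Car3 alone, at 262 to 375 FPKM in controls and 266 to 369 in cadmium. Cela1, the other gene tested, averaged 1.41 and 1.42 FPKM. Ckm, Acta1, Actn3, Adipoq, Cel and Amy2a5 averaged under 0.1 FPKM.

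Control 1 and cadmium 2, the libraries with the lowest share of Alb, were at the low end for most called collagens, though not for Col18a1 or the summed FPKM. Of the 10 called genes, cadmium 2 was the lowest cadmium library in 8 and control 1 the lowest control in 7. How often these libraries were lowest over all genes was not counted, so the 8 and 7 have no background. Without both libraries 4 collagen genes were called, Col1a1, Col14a1, Col3a1 and Col4a1, against 0.3% of all genes called higher in that fit. With the block over genes with a mean of at least 1 FPKM, Col1a1, Col3a1 and Col1a2 were called, against 0.675% of all genes. Col1a1 and Col1a2 passed that filter only through their cadmium values. Both settings were chosen after the data were seen.

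**Figure D4:**
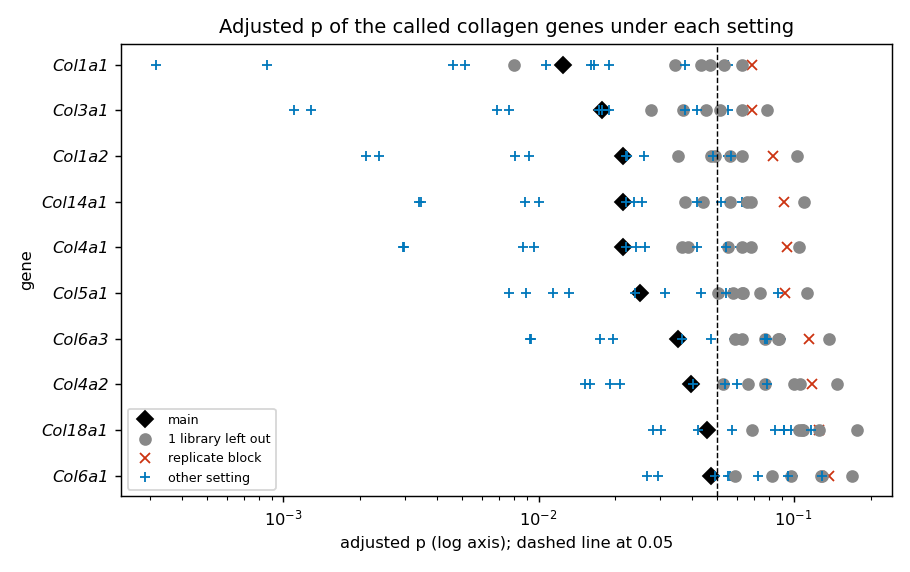
Adjusted p on a log axis of the 10 called collagen genes in the reported fit (black diamonds), with 1 library left out (grey), with the replicate block (red crosses) and under the other settings (blue plus signs); the dashed line is 0.05. Every red cross lies to the right of the line, from 0.0685 to 0.137, and the upper rows, Col1a1 and Col3a1, have the most points to its left.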

How the data were processed

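Liver input RNA of 3 control and 3 cadmium libraries was analysed. The authors' first deposited table holds FPKM for 55335 genes, and their second deposited table holds log2 values, group means, a log2 fold change, a p-value and an FDR for 34352 genes. The submitters' processing notes name mm10, DESeq2, MACS2 2.1.1, STAR 2.7.1a, cutadapt 1.1.8 and SAMtools 1.3.1 without a role. The read counter is not given in the sources used here, nor is the annotation.

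The second table's deposited log2 values, with log2 and a pseudocount of 1 undone, stepped in whole reads: 100% of values came out whole within 0.05 of a read. Those reads give the totals and an alternative fit with limma's voom. The libraries held 42115960 to 68587128 reads, tested collagen genes 26 to 87330 reads in a library, and each group 3 libraries, which limits precision.

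Groups were compared by limma 3.58.1 under R 4.3.3 (trend, robust, two-sided, Benjamini-Hochberg) on log2(FPKM + 1), over genes with a mean of at least 0.1 FPKM, and checked on simulated data. Exact permutation tests used scipy 1.17.1. Alternatives changed the pseudocount, filter, scaling, table, block and libraries. FPKM depend on the library total. The log2 fold change had a median over all tested genes of 0.08, and of -0.00 after quantile normalization.

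The replicate number is the batch on the labels, which pairs the libraries. Deviations from group means correlated across genes at -0.10, -0.16 and 0.01 for same-numbered libraries and at -0.11 to 0.20 for the others.

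The members and lists were chosen with earlier results of these data known. Every collagen gene is named, with full statistics for called genes and the most abundant gene of each structural class, and up to 4 genes with the smallest p are named per list. Lrat, Reln, Adgre1 and Lox were named after their values were seen. Coordinates are from GENCODE M21, and promoter windows from RefSeq on GRCm38.p6.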

Additional observations from a re-analysis of the deposited data

How the results depend on the processing

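Collagen calls depended on the filter, the scaling, the pairing and single libraries. The count of 10 collagen genes called higher became 6 with quantile normalization, 0 with no filter, 0 to 5 with 1 library left out, and 4 without control 1 and cadmium 2 together. With the replicate block it was 0. With the block over genes with a mean of at least 1 FPKM it was 3, a filter that Col1a1 and Col1a2 passed only through cadmium. 0 collagen genes were called lower in any setting. Over 17 alternatives Col1a1 stayed called in 13, Col3a1 in 12, Col1a2 in 11, and Col14a1 and Col4a1 in 10. Col5a1 stayed called in 7, Col6a3 in 6, Col4a2 in 5, and Col18a1 and Col6a1 in 3. None of these 10 reversed, though the block, the filters and the left-out libraries could not have reversed them. The cause of the lost calls was not tested.

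Over all genes, 578 were higher and 132 lower. These counts were 161 and 157 with quantile normalization, 233 and 173 with upper quartile scaling, 465 and 409 from the deposited log2 table, 454 and 402 with voom, 31 and 6 with no filter, 2 and 1 with the replicate block, 66 and 34 with the block over genes with a mean of at least 1 FPKM, 57 and 40 without control 1 and cadmium 2, and 0 to 158 and 0 to 91 with 1 library left out.

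Reversals concerned values that did not pass the test. The log2 fold change of Col10a1 was -0.038 with quantile normalization and -0.022 with voom, that of Col4a3 -0.00532 with quantile normalization, and that of Col20a1 -0.021 with quantile normalization, -0.00369 without control 1 and cadmium 2, and -0.00341 to 0.073 with 1 library left out. Col2a1 ranged from -0.048 to 0.00167 with 1 library left out. Cela1 was at -0.10 with quantile normalization, -0.055 with upper quartile scaling, -0.14 with voom and in the deposited log2 table, and -0.081 to 0.15 with 1 library left out. Car3 was at -0.10 with upper quartile scaling, -0.16 with voom and in the deposited log2 table, and -0.12 to 0.15 with 1 library left out. Cadmium over control, the ratio of Col5a1 to Col5a2 ranged from 0.867 to 1.25 and that of Col6a1 to Col6a2 from 0.939 to 1.01 with 1 library left out.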
